A study of Mus musculus with 10 samples.

Results

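Ribosomal protein genes encode the protein part of the cytoplasmic ribosome. The genes described here are the 79 rows, of 48897 in each expression table, whose mouse symbol begins with Rps, Rpl or Rplp followed by a number, together with Rpsa and without symbols that carry a -ps pseudogene suffix. They comprised 33 small subunit (Rps) and 46 large subunit (Rpl) rows. GENCODE M21 annotates 77 of them as protein coding and 2, Rps3a2 and Rps3a3, as processed pseudogenes, that is, intronless copies of a spliced mRNA.

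The study asked how loss of Arid1a, which encodes a DNA-binding component of SWI/SNF chromatin remodelers, alters gene expression in prostate cancer. RNA was sequenced from EpCAM+; CD45- cells of the prostates of 3-month-old C57BL/6 mice, in 3 control libraries (Ctrl A, B and C) and 3 Arid1a PC-/- libraries (KO A, B and C). Both groups shared a tumor-prone genetic background, and Arid1a was deleted by Probasin-Cre, a recombinase expressed from a prostate epithelial promoter. RNA was also sequenced from Myc-CaP, a prostate cancer line from a c-Myc transgenic FVB mouse, in 2 empty-vector libraries (EV 1 and 2) and 2 libraries with a CRISPR knockout of Arid1a (KO 1 and 2). The study's methods give mice as the replicates of the epithelium. For Myc-CaP, whether KO 1 and KO 2 are separate clones or cultures is not given in the sources used here, so its p-values measure the spread between these libraries, which may be technical.

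A ribosome needs about equal numbers of most of its proteins, and their mRNAs are among the most abundant of a growing cell. Most of these mRNAs start with a 5' terminal oligopyrimidine (TOP) stretch of C and T, through which mTORC1 and the RNA-binding protein Larp1 control their translation and stability. MYC raises transcription of ribosomal protein and ribosome assembly genes. Ribosomal proteins made in excess are degraded, and free Rpl5 and Rpl11 bind Mdm2 and stabilize p53.

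The targeted gene was examined first. Arid1a was at 27.8, 21.9 and 26.5 RPKM (read density scaled to gene length and library size) in Ctrl A, B and C and at 31.1, 28.8 and 30.8 RPKM in the libraries labelled KO. It was thus not lower in the epithelium labelled Arid1a-deleted (log2 fold change 0.25 ± 0.09 SE, limma adjusted p = 0.054), and every direction in that table is a direction between labelled groups. In Myc-CaP, Arid1a was at 60.5 and 61.0 TPM (transcript abundance scaled to length and to an equal library total) in EV and 39.5 and 40.3 TPM in KO, a fall of log2 fold change -0.59 ± 0.06 (adjusted p = 0.010). The part of the gene removed in either model was not examined, and reads outside it would still be counted.

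The epithelium libraries also differed in markers of other cells, and these values stand beside every epithelium result that follows. Epcam was at 279, 351 and 281 RPKM in Ctrl and 183, 194 and 225 RPKM in KO, and Ptprc, which encodes CD45, was at 30.3, 26.0 and 29.5 against 56.2, 58.1 and 57.6 RPKM although the cells were sorted as CD45-. All 6 macrophage markers and 4 of 5 leukocyte markers were higher in KO, with summed levels of 1933 to 2267 against 3607 to 4149 RPKM and of 712 to 746 against 798 to 859 RPKM. The fifth leukocyte marker, Cd52, was lower (-1.09, adjusted p = 5.13e-05). All 8 seminal vesicle secretion genes were lower, summing to 19464 to 21979 RPKM in Ctrl and 647 to 1632 RPKM in KO, and all 5 erythroid genes were lower, summing to 472 to 604 against 82.5 to 136 RPKM. B and plasma cell (5 of 6) and T cell (4 of 6) markers were higher, smooth muscle markers were lower in 4 of 5 and higher in 1, and 3 of 6 fibroblast markers were lower. Among 9 epithelial markers 2 were higher and 4 lower, among 6 tested neutrophil markers 2 were higher and 1 lower, and 1 of 5 endothelial markers was higher. None of the listed markers was at 0 in all 6 libraries. The part of these cells in the ribosomal protein result was not tested, and in bulk RNA fewer cells of a type and less RNA per cell cannot be told apart. In Myc-CaP, Epcam was listed at 0 in 3 libraries and at 0.13 TPM in KO 2, Krt8 was at 1.07 and 0.79 TPM in EV and 40.3 and 38.8 TPM in KO, and Ptprc was at 0.044 TPM in EV 2 and listed at 0 in the other 3 libraries.

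Ribosomal protein genes were lower in the epithelium labelled KO than in Ctrl. Of the 79 rows, all of which passed the filter on low values, 72 fell and 1 (Rps3a2) rose, while 6 did not pass the test (limma on log2(RPKM + 1), Benjamini-Hochberg adjusted p under 0.05 over 16275 genes). Of all genes tested, 29.6% were called lower and 27.5% higher, so the table as a whole held many differences. The median log2 fold change of the 79 rows was -0.53, against -0.03 over all genes tested. The 77 protein-coding genes each had a lower mean in KO, with KO means between 0.405 and 0.864 times the Ctrl mean and a median of 0.684 times. Groups did not overlap for 78 of 79 rows, compared with 66.7% of all genes tested, and 27 coding genes fell by at least 1.5-fold, compared with 13.2% of all genes tested on the same scale.

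A share of the summed RPKM divides out differences between library sums, as the rescaling described below does. By this measure too, and without any gene-by-gene test, these genes were lower in KO. They made up 9.37%, 11.3% and 9.77% of the summed RPKM in Ctrl A, B and C, and 7.83%, 7.75% and 8.05% in KO A, B and C, or 10.1% ± 1.02 (SD, n = 3) against 7.88% ± 0.155 (SD, n = 3). The highest KO library lay below the lowest Ctrl library. The small subunit genes held 4.13% ± 0.417 in Ctrl and 3.25% ± 0.0632 in KO, and the large subunit genes 6.02% ± 0.603 and 4.63% ± 0.0923. With the 8 seminal vesicle genes left out of the sum, the shares were 9.84%, 11.8% and 10.3% in Ctrl and 7.87%, 7.76% and 8.06% in KO.

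**Figure D1:**
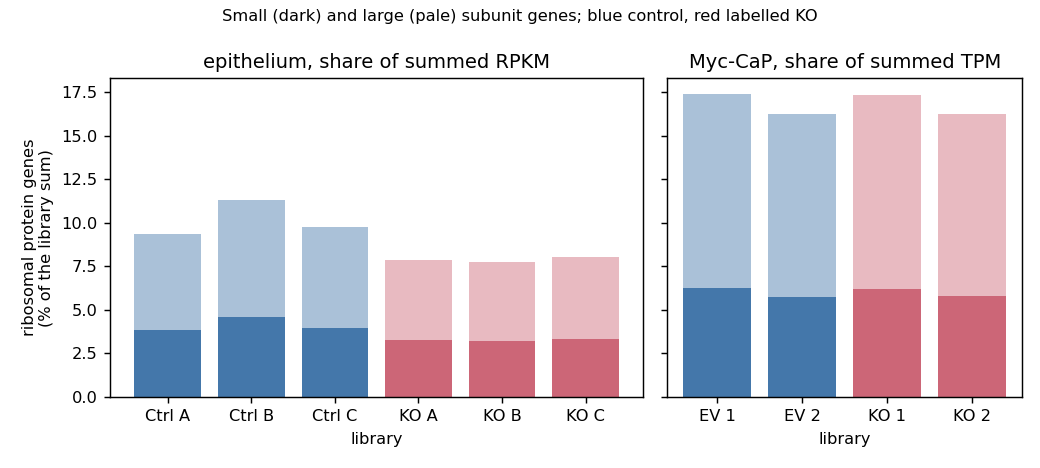
Share of each library's summed expression held by the 79 ribosomal protein rows, in percent of summed RPKM (epithelium, left) or summed TPM (Myc-CaP, right), with the small subunit in the dark and the large subunit in the pale part of each bar. The 3 epithelium libraries labelled KO sit between 7.75% and 8.05%, below the 3 Ctrl libraries, while in Myc-CaP the libraries numbered 1 sit above those numbered 2 in both groups.

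Ctrl B stood apart from Ctrl A and Ctrl C. It had the highest value of its group for 76 of 79 rows, and an estimated depth of 1.23 relative to Ctrl A, while the other libraries had 0.972 to 1.05. The coefficient of variation of a coding gene had a median of 13.7% among Ctrl and 4.99% among KO libraries. Without Ctrl B the fit still called 72 rows lower, with a median of -0.43.

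The summed RPKM of the libraries was 441646 to 473331 in Ctrl and 397999 to 403031 in KO, so the columns were also rescaled to the same sum. On that scale 59 rows fell and Rps3a2 rose, against 20.1% of all genes called lower and 37.2% higher, and the median was -0.35. Rescaling moved the median of all genes to 0.11, and relative to that median the ribosomal protein rows stood at -0.46, compared with -0.50 as deposited. Genes that fell only before rescaling included Rplp0, Rpsa, Rpl7a, Rpl8, Rpl26, Rpl27a and Rpl28. Coding members are short, with a median exon length of 1781 bases against 3995 bases over 14474 tested genes with a length, and with a length-linked trend removed from each library 71 rows fell, against 31.6% of all genes tested, with a median of -0.50.

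**Figure D2:**
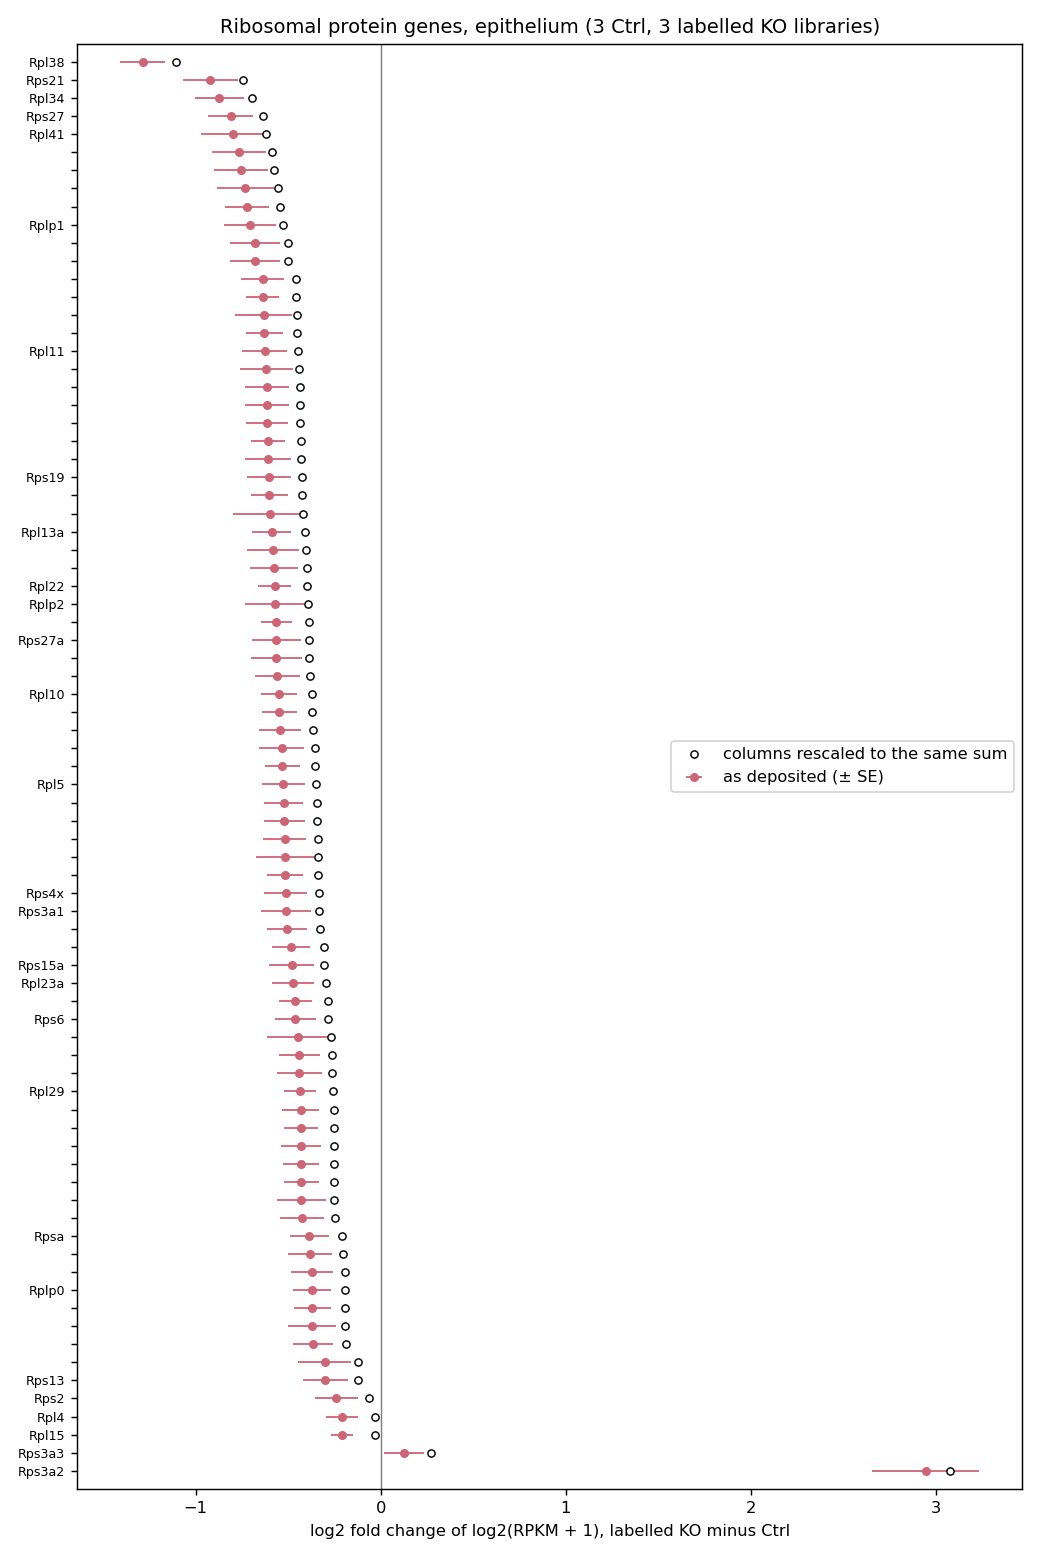
Log2 fold change of each of the 79 rows in epithelium, labelled KO minus Ctrl, on the log2(RPKM + 1) scale, as deposited (red, bars are the standard error) and with columns rescaled to the same sum (open circles), with some of the genes described in the text named on the axis. The 77 coding genes lie left of 0 on both scales, from Rpl38 at -1.28 to Rpl15 at -0.21 as deposited, and Rps3a2 lies at 2.94.

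The largest fall was that of Rpl38, a large subunit protein whose loss in mice disturbs axial patterning. Rpl38 was at 398, 540 and 407 RPKM in Ctrl and at 183, 178 and 183 RPKM in KO. Every Ctrl value was more than that of any KO library, and the KO libraries differed little from each other (log2 fold change -1.28 ± 0.12 SE, adjusted p = 1.40e-04). Rps21, a small subunit protein needed for rRNA maturation, was at 504, 716 and 492 RPKM in Ctrl and 284, 294 and 313 RPKM in KO (-0.92 ± 0.15, adjusted p = 0.0015). Rpl34, a large subunit protein, was at 300.5, 376 and 310 RPKM in Ctrl and 209, 174 and 157 RPKM in KO (-0.87 ± 0.13, adjusted p = 0.0011). Rps27, a zinc-binding small subunit protein, was at 352, 429 and 383 RPKM in Ctrl and 231, 188 and 245 RPKM in KO (-0.81 ± 0.12, adjusted p = 0.0011). In each of these genes the groups did not overlap.

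The genes of highest level were Rpl41, Rplp1 and Rplp0 on the RPKM scale, which is per length. Rpl41, the smallest ribosomal protein, was at 1640, 2507 and 1693 RPKM in Ctrl and 1034, 1161 and 1104 RPKM in KO (-0.80 ± 0.17, adjusted p = 0.0062). Ctrl B was far above the other Ctrl libraries, and the groups did not overlap. At the low end, the coding gene of lowest level was Rps15a at 40.0, 55.5 and 41.4 RPKM in Ctrl and 32.0, 30.6 and 33.7 RPKM in KO (-0.48 ± 0.12, adjusted p = 0.012). The mean levels of the 77 coding genes spanned 39.2-fold in epithelium, with a median of 448 RPKM. Across these genes the fold change had a Spearman's rho of 0.15 with the level and 0.23 with the exon length, given as a description over 77 genes of the same libraries.

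The stalk of the large subunit, built of Rplp0, Rplp1 and Rplp2, recruits the elongation factors. Of its 3 genes 3 fell, as did 72 of all 77 coding genes. Rplp0, the base of the stalk, was at 923, 1112 and 973 RPKM in Ctrl and 785, 737 and 797 RPKM in KO (-0.37 ± 0.10, adjusted p = 0.017). Rplp1 was at 1590, 2203 and 1648 RPKM in Ctrl and 1086, 1090 and 1123 RPKM in KO (-0.71 ± 0.14, adjusted p = 0.0043). Rplp2 was at 581, 887 and 618 RPKM in Ctrl and 434, 485 and 459 RPKM in KO (-0.57 ± 0.16, adjusted p = 0.018). The groups did not overlap in any of the 3, but the limma call for Rplp0 was lost on the rescaled columns (-0.19, adjusted p = 0.077) and those for Rplp1 and Rplp2 were kept. Rplp0 also lost its call without KO B (adjusted p = 0.055) and Rplp2 without KO A (adjusted p = 0.059).

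Rpl5 and Rpl11, which carry the 5S rRNA into the large subunit, both fell. Rpl5 was at 252, 329 and 264 RPKM in Ctrl and 189, 183 and 212 RPKM in KO (-0.53 ± 0.12, adjusted p = 0.0062), and Rpl11 was at 483, 652 and 502 RPKM in Ctrl and 344, 343 and 362 RPKM in KO (-0.63 ± 0.12, adjusted p = 0.0037). Groups did not overlap for either gene. All 15 listed genes that are mutated in Diamond-Blackfan anaemia, a failure of red cell production, were lower, with a median of -0.58. On the rescaled columns 12 of 15 were lower. Of all 77 coding genes, 93.5% were lower as deposited and 76.6% on the rescaled columns. Among them Rps19, the gene most often mutated in that disease, was at 376, 461 and 382 RPKM in Ctrl and 284, 232 and 287 RPKM in KO (-0.60 ± 0.12, adjusted p = 0.0040), with no overlap.

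Several members named by a set list have known roles beside protein synthesis. Rps6, the substrate of S6 kinase downstream of mTORC1, was at 393, 521 and 428 RPKM in Ctrl and 307, 330 and 333 RPKM in KO (-0.46 ± 0.11, adjusted p = 0.010). Rpsa, also known as the laminin receptor precursor, was at 450, 573 and 475 RPKM in Ctrl and 382, 372 and 385 RPKM in KO (-0.39 ± 0.10, adjusted p = 0.015), a call lost on the rescaled columns (adjusted p = 0.063). Rps27a, translated as a fusion with ubiquitin, was at 330, 474 and 371 RPKM in Ctrl and 249, 260 and 277 RPKM in KO (-0.56 ± 0.13, adjusted p = 0.0086). The lowest Ctrl library was above the highest KO library in all 3 genes. Rpl13a, which also serves in interferon-linked control of translation, was at 926, 1148 and 961 RPKM in Ctrl and 667, 662 and 678 RPKM in KO (-0.59 ± 0.11, adjusted p = 0.0026). Rpl22, which has a paralog in Rpl22l1, was at 82.0, 101 and 83.6 RPKM in Ctrl and 58.2, 60.2 and 59.1 RPKM in KO (-0.57 ± 0.09, adjusted p = 0.0012). Rpl22l1 fell as well, from 78.2, 106 and 85.0 RPKM to 62.6, 73.9 and 64.9 RPKM (-0.41 ± 0.12, adjusted p = 0.023), though not on the rescaled columns (-0.23, adjusted p = 0.094). Not every member with such a role passed the test, since Rps3, which also acts in DNA repair, did not (-0.30, adjusted p = 0.11).

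X-linked members fell in 4 of 4, beside 72 of all 77 coding genes. Among them Rpl10, which joins the large subunit late in its assembly, was at 784, 872 and 858 RPKM in Ctrl and 574, 527 and 618 RPKM in KO (-0.55 ± 0.10, adjusted p = 0.0024). Rps4x was at 609, 805 and 663 RPKM in Ctrl and 478, 468 and 500.5 RPKM in KO (-0.51 ± 0.12, adjusted p = 0.0070). Of the 9 listed members at the peptide exit tunnel 8 fell, and Rpl4, which lines it, did not pass the test, at 597, 663 and 615 RPKM in Ctrl and 508, 562 and 550 RPKM in KO (-0.21 ± 0.09, adjusted p = 0.071). Rpl23a, a tunnel-exit protein that the signal recognition particle contacts, was at 721, 918 and 761 RPKM in Ctrl and 579, 533 and 609 RPKM in KO (-0.47 ± 0.12, adjusted p = 0.0099). By subunit, 27 of 33 small subunit rows fell, with a median of -0.51, and 45 of 46 large subunit rows fell, with a median of -0.55. Beside Rpl4, the rows that missed the threshold included Rps13, Rps3 and Rps2, with log2 fold changes between -0.30 and -0.24, and the pseudogene Rps3a3.

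**Figure D3:**
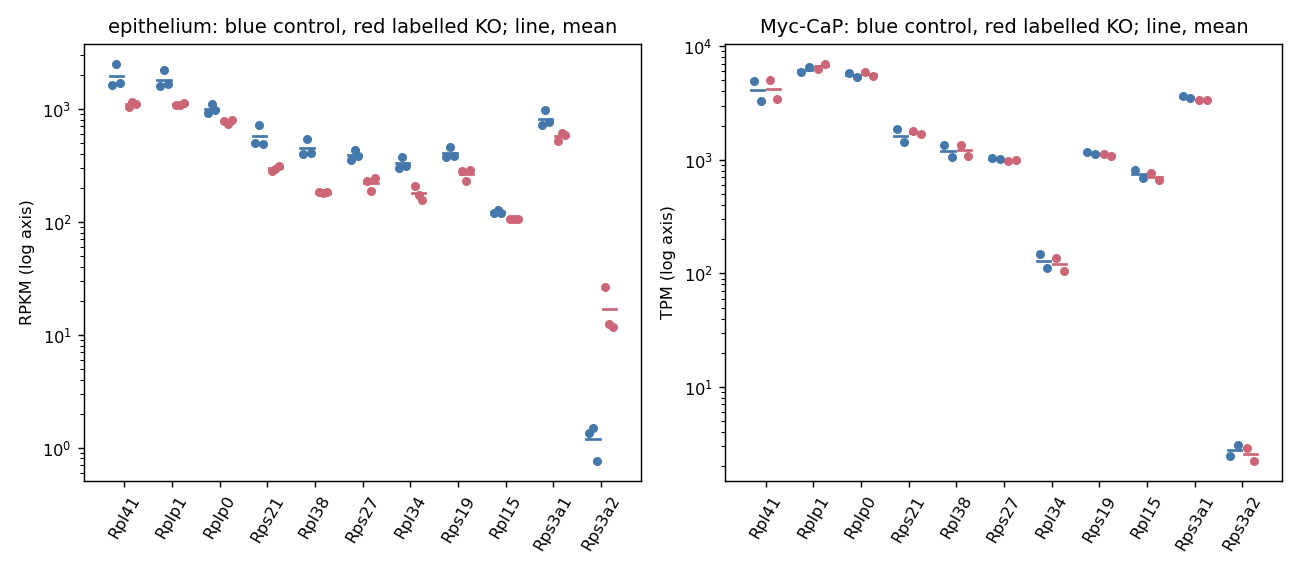
Expression of 11 named rows in each library, on a log axis in RPKM for epithelium (left) and TPM for Myc-CaP (right), with control libraries in blue, libraries labelled KO in red and lines at the group means. In epithelium each coding gene has every KO point below every Ctrl point and Rps3a2 has the reverse, while in Myc-CaP the points of the groups interleave for most genes.

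To see which genes departed from the set, each epithelium library was shifted so that the median of the 79 rows was equal. On this scale 5 coding genes were lower than the rest of the set, Rpl38 (-0.76), Rps21 (-0.39), Rpl34 (-0.34), Rps27 (-0.28) and Rpl41 (-0.27). A further 4 coding genes, Rpl15 (0.32), Rpl4 (0.32), Rps2 (0.29) and Rps13 (0.23), were higher, as were both pseudogene rows. Of all genes tested, 5.63% were called lower and 61% higher on this scale. The 5 lower of 79 rows are near the first share, and the 6 higher rows are below the second. The shift itself moved the median of all genes to 0.50, so these shares are no baseline for departures within the set. The shift also made the adjustment over all genes lenient. On this scale 10846 of 16275 genes were called, and 13 of the 79 rows had an unadjusted limma p under 0.05. Most calls of single rows depended on the fit. With limma's variance trend over the level of expression left out, Rpl38 (adjusted p = 4.91e-04) and Rps21 (adjusted p = 0.021) were the 2 coding genes called lower. In that fit 0 coding genes were higher, and both rows still called higher were the pseudogenes. Rpl4 was the 1 coding gene called higher without KO A and without KO B, and 3 rows were lower without KO C. Rpl38 and Rps21 were called lower with each library left out in turn. Rpl38 had a limma adjusted p of 2.56e-05 on this scale. Rpl15, the coding gene of smallest change, was at 120, 126 and 119 RPKM in Ctrl and 106, 105 and 105 RPKM in KO, without overlap (-0.21 ± 0.06 as deposited, adjusted p = 0.017). That limma call was lost on the columns rescaled to the same sum (-0.03, adjusted p = 0.65).

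**Figure D4:**
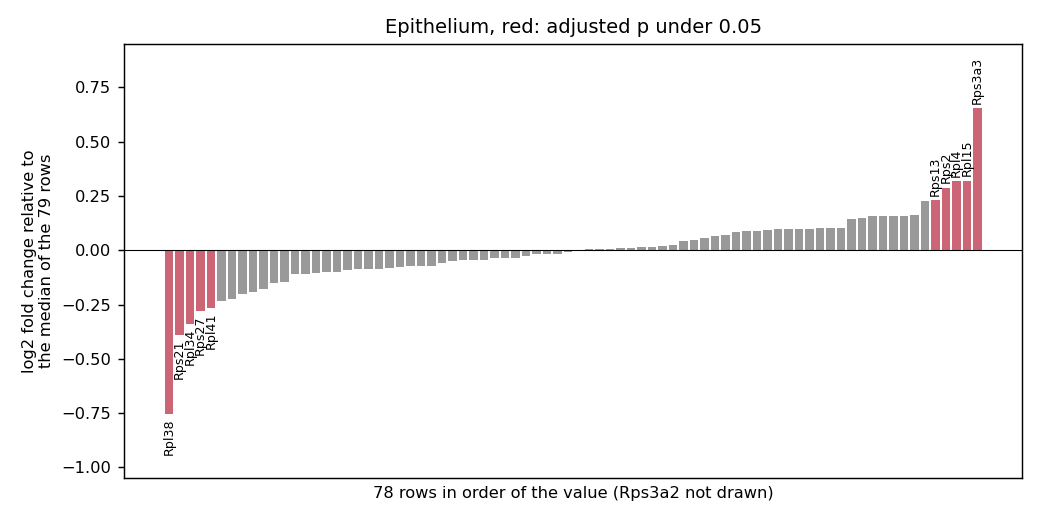
Log2 fold change of 78 rows in epithelium after each library was shifted to an equal median of the 79 rows, sorted, with rows at adjusted p under 0.05 in red and named. Rpl38 stands at -0.76, and the other named coding genes stand between -0.39 and 0.32.

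The start-site sequences of these 9 coding genes are shown to compare the C and T runs at the low and the high end of the set. Each line gives 30 bases of a RefSeq promoter record (GRCm38.p6, bases at the edge of the promoter and the first exon). The longest run of C and T within 50 bases of the annotated start is in capitals. For a gene with several records the one with the longest such run is shown, so runs and positions were chosen for length. A TOP stretch begins at the 5' end of the mRNA, and only some of these runs lie there. Counted from 1 at the annotated start, the run began at -2 in Rpl38 and Rps27, at -4 in Rpl15 and at -17 in Rpl34, and further inside the transcript in Rps13 (13), Rpl4 (27), Rps21 (35), Rpl41 (41) and Rps2 (41). In Rpl41 and Rps2 the run reached base 50, where the record ended, so its full length is not known.
Rpl38, chr11:114668568-114668597, plus strand: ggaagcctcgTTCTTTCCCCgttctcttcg
Rps21, chr2:180257399-180257428, plus strand: ggaggcacgagctaCTTCCTTTCTgcgctc
Rpl34, chr3:130730330-130730359, minus strand: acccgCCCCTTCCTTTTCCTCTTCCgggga
Rps27, chr3:90213631-90213660, minus strand: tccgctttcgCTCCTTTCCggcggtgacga
Rpl41, chr10:128549119-128549148, minus strand: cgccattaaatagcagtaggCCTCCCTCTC
Rpl15, chr14:18270967-18270996, minus strand: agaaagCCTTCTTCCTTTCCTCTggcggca
Rpl4, chr9:64173406-64173435, plus strand: agcgtggCCTTCTCCTCTCCCCgtcatggt
Rps2, chr17:24720083-24720112, plus strand: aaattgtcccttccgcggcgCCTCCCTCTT
Rps13, chr7:116334161-116334190, minus strand: tgagtggcgtcaCTTCCTgtgcggcttgat

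Runs of 10 or more C and T were present both in genes at the low end, such as Rpl38 and Rpl34, and in genes at the high end, such as Rpl15 and Rpl4. Of the 79 rows 57 had a RefSeq promoter entry, and 42 of them (73.7%) held a run of at least 10 within 50 bases of the start, compared with 20.6% of 27025 genes with an entry. A gene with several entries was counted if any entry held the run, and likewise for the motifs below. The median log2 fold change in epithelium was -0.56 for the 42 genes with such a run and -0.51 for the 15 with a shorter one. Within 250 bases before and 50 after the start, on either strand, CCGGAAG, a motif of the ETS family, was found in 24 of 57 (42.1%) against 9.93% of all genes, and the median fold change was -0.53 with it and -0.53 without it. CACGTG, the E-box that MYC can bind, was found in 6 of 57 (10.5%) against 8.09%, and TATAAA in 6 of 57 (10.5%) against 15.7%. The reverse complement CTTCCGG opens with C and T letters and can overlap a pyrimidine run. A match describes the sequence only.

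The only row that rose in epithelium was Rps3a2, which is annotated as a processed pseudogene at chr14:88123017-88123808 on the minus strand. Rps3a2 was at 1.34, 1.499 and 0.76 RPKM in Ctrl and 26.5, 12.4 and 11.7 RPKM in KO, with no overlap, and KO A was the highest (2.94 ± 0.29, adjusted p = 1.73e-04). Its parent Rps3a1, a small subunit protein gene, was at 721, 975 and 761 RPKM in Ctrl and 515, 612 and 588 RPKM in KO (-0.51 ± 0.14, adjusted p = 0.014), a call lost without KO A (adjusted p = 0.055). The pseudogene differs from the Rps3a1 transcript at 4 of 792 aligned bases (99.5% identity), with an identical stretch of 317 bases, so the division of reads between these rows is uncertain. The second pseudogene row, Rps3a3 at chr13:108670603-108671397, differs at 9 of 795 bases (98.9% identity) and was at 4.65, 4.97 and 3.71 RPKM in Ctrl and 4.79, 5.44 and 4.54 RPKM in KO, with overlap (0.13 ± 0.11, adjusted p = 0.35). The lines below show the 30 bases in which Rps3a1 and Rps3a2 differ most, with the differing bases in capitals (GENCODE M21 transcripts, GRCm38, exon 5 of 6 in Rps3a1 and the single exon of Rps3a2).
Rps3a1, chr3:86138488-86138517, minus strand: aaaagtAaaaatgctgaagaaacccaagtT
Rps3a2, chr14:88123141-88123170, minus strand: aaaagtTaaaatgctgaagaaacccaagtC

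Ribosomal proteins that the symbol rule leaves out were mostly lower too. Fau, a ubiquitin-like and small subunit protein fusion, had a log2 fold change of -0.63 (adjusted p = 0.0031) and Rack1, a scaffold on the small subunit, one of -0.35 (adjusted p = 0.020), which was lost on the rescaled columns (-0.18, adjusted p = 0.10). In all, 6 of 9 tested genes of this list fell, with the largest fall in Rpl36al (-0.72, adjusted p = 0.0012), a paralog of Rpl36a. Rps27l, a p53-responsive paralog of Rps27, fell as well (-0.53, adjusted p = 0.0045). Of 62 tested rows with a ribosomal protein pseudogene suffix, 29 were lower and 2 higher, against 29.6% and 27.5% of all genes tested. They ranged from Rps13-ps1 (-2.46, adjusted p = 5.34e-05) to Rpl29-ps6 (1.14, adjusted p = 8.36e-04).

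Other lists of the translation apparatus had medians nearer to 0 in epithelium as deposited and on the rescaled columns, and the difference from the ribosomal proteins was not tested. With quantile normalization this order changed, to -0.31 for the ribosomal proteins, -0.42 for the small nucleolar RNA hosts and -0.35 for the mitochondrial ribosomal proteins. Of 19 other TOP mRNAs, 9 were lower and 2 higher, against 29.6% and 27.5% of all genes tested, with a median of -0.24. On the rescaled columns 4 were lower and 5 higher, against 20.1% and 37.2%, with a median of -0.06. Eef1d, an exchange factor of elongation, fell most (-0.50, adjusted p = 0.0065) and Nap1l1, a histone chaperone, rose most (0.26, adjusted p = 0.0094). Eef1a1, the carrier of aminoacyl-tRNA, was at 2830, 3236 and 3031 RPKM in Ctrl and 2480, 2419 and 2619 RPKM in KO, which did not pass the test (-0.27 ± 0.12, adjusted p = 0.088). Eef2, the translocase, fell as deposited (-0.24, adjusted p = 0.043) but not after rescaling (-0.06, adjusted p = 0.52), and Tpt1 likewise (-0.34, adjusted p = 0.021, and -0.17, adjusted p = 0.14). Pabpc1, the poly(A)-binding protein, rose (0.21, adjusted p = 0.037) on both scales. Of 8 non-coding TOP transcripts that host small nucleolar RNAs, 7 were lower, with a median of -0.42 and the largest fall in Snhg8 (-0.88, adjusted p = 2.89e-04). After rescaling 4 of 8 were lower. The shares of all genes called lower were the same 29.6% and 20.1%.

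Lists of genes that build the ribosome or start translation held calls in both directions. Of 50 ribosome assembly genes, 10 were higher and 9 lower as deposited, against 27.5% and 29.6% of all genes tested, and 17 higher and 4 lower after rescaling, against 37.2% and 20.1%. They ranged from Nop10, of the pseudouridylation complex (-0.90, adjusted p = 0.0017), to Heatr1, of the small subunit processome (0.89, adjusted p = 1.31e-04). The nucleolar proteins Npm1 (0.03, adjusted p = 0.76), Ncl (0.04, adjusted p = 0.70) and Fbl (-0.08, adjusted p = 0.45) did not pass the test as deposited, and after rescaling Npm1 passed it with 0.21 (adjusted p = 0.030). Of 34 initiation factor genes, 7 were higher and 8 lower, against the same 27.5% and 29.6%, from Eif3i (-0.51, adjusted p = 0.0033) to Eif5 (0.51, adjusted p = 6.86e-04). After rescaling 15 of them were higher and 4 lower, against 37.2% and 20.1%. Of 77 mitochondrial ribosomal protein genes, 49 were lower and 0 higher by limma (0 higher also at an unadjusted p under 0.05), against 29.6% and 27.5%. Their median was -0.36, with the largest fall in Mrpl54 (-0.77, adjusted p = 2.95e-04). After rescaling 32 were lower and 2 higher, against 20.1% and 37.2%.

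Among 17 tested genes that regulate ribosomal protein mRNAs, 8 were higher and 2 lower, against 27.5% and 29.6% of all genes tested. After rescaling 12 were higher and 1 lower, against 37.2% and 20.1%. Myc was at 40.4, 33.6 and 44.6 RPKM in Ctrl and 31.0, 28.7 and 30.1 RPKM in KO (-0.38 ± 0.10, adjusted p = 0.015), a call lost after rescaling (-0.21, adjusted p = 0.17). Mtor, the kinase of mTORC1, rose from 6.25, 5.33 and 5.78 RPKM to 7.71, 7.41 and 7.74 RPKM (0.35 ± 0.07, adjusted p = 0.0055), and Larp1 rose (0.17, adjusted p = 0.029). Mlst8, another mTOR complex subunit, fell (-0.46, adjusted p = 0.0028), Larp4, an RNA-binding protein that protects poly(A) tails, rose (0.38, adjusted p = 0.011), and Eif4ebp1, an mTORC1 substrate, did not pass the test (-0.23, adjusted p = 0.053). These are mRNA levels and not activities of the kinase.

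In Myc-CaP no ribosomal protein row passed the test in the Arid1a knockout. By limma on log2(TPM + 1), 0 of 79 rows were called higher or lower, against 6.43% of 13974 genes tested, and 1 row, Rps3a3, had an unadjusted p under 0.05. With the library number as a replicate block 7 rows were called lower and 4 higher, against 9.43% and 10.4% of all genes tested. The median log2 fold change was -0.01, as over all genes tested, and coding genes ranged from -0.11 (Rps3a1) to 0.12 with standard errors of 0.05 to 0.27. Groups did not overlap for 18 of 79 rows, compared with 51.5% of all genes tested. The share of summed TPM was 17.4% and 16.2% in EV 1 and 2 and 17.3% and 16.3% in KO 1 and 2.

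In the line, values differed between the libraries numbered 1 and 2. EV 1 was the higher EV library for 66 of 79 rows and KO 1 the higher KO library for 64. Rpl41 was at 4943 and 3283 TPM in EV 1 and 2 and at 5060 and 3419 TPM in KO 1 and 2, so that the numbers differed by more than the groups (0.05 ± 0.27, adjusted p = 0.95). What the numbers mark is not given in the sources used here.

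The genes with the largest falls in epithelium did not pass the test in the line. Rpl38 was at 1362 and 1052 TPM in EV and 1364 and 1084 TPM in KO (0.02 ± 0.17, adjusted p = 0.96). Rps21 was at 1850 and 1422 TPM in EV and 1807 and 1674 TPM in KO (0.10 ± 0.14, adjusted p = 0.73). Both overlapped between groups. Rpl34 was at 148 and 111 TPM in EV and 138 and 106 TPM in KO (-0.09 ± 0.18, adjusted p = 0.84). In the line its pseudogene rows held 94.2% of the gene and pseudogene rows together, against 9.85% in epithelium. The division of reads is thus uncertain for Rpl34. Rps27 was at 1034 and 1013 TPM in EV and 969 and 1003 TPM in KO (-0.05 ± 0.05, adjusted p = 0.63). Rps27 did not overlap between groups, by a small margin.

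Rplp1, the most abundant ribosomal protein mRNA of the line per length, was at 5959 and 6508 TPM in EV and 6321 and 7006 TPM in KO (0.10 ± 0.09, adjusted p = 0.60). Rpl23a was at 5825 and 5380 TPM in EV and 6000.2 and 5511 TPM in KO, and Rplp0 at 5799 and 5358 TPM in EV and 5928 and 5442 TPM in KO, with overlap in all 3 genes. Rplp2, Rpl5 and Rpl11 had log2 fold changes of 0.01, -0.06 and -0.05. Rps6, Rpsa, Rps27a, Rps19, Rpl10 and Rps4x lay between -0.05 and 0.06. At the low end of the line, Rpl29, a large subunit protein, was at 43.8 and 41.9 TPM in EV and 49.8 and 41.9 TPM in KO (0.09 ± 0.10, adjusted p = 0.67). The pseudogene rows were at 2.46 and 3.09 TPM in EV and 2.88 and 2.24 TPM in KO for Rps3a2, and at 4.22 and 4.35 TPM in EV and 6.44 and 5.94 TPM in KO for Rps3a3 (0.44 ± 0.12, adjusted p = 0.11).

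Of the lists around the ribosome, few genes were called in Myc-CaP. Among 8 small nucleolar RNA hosts 2 were higher, Snhg5 (0.37, adjusted p = 0.030) and Snhg12 (0.34, adjusted p = 0.029). Mtor was lower, at 49.8 and 50.9 TPM in EV and 36.7 and 38.1 TPM in KO (-0.42 ± 0.06, adjusted p = 0.028), whereas in the epithelium labelled KO it was higher. Myc was at 44.6 and 43.3 TPM in EV and 52.3 and 56.3 TPM in KO and did not pass the test (0.30 ± 0.07, adjusted p = 0.076). By limma 0 of 19 other TOP mRNAs, 0 of 34 initiation factors, 0 of 50 assembly genes and 0 of 77 mitochondrial ribosomal protein genes were called. At an unadjusted p under 0.05 there were 1 higher and 2 lower other TOP mRNAs, 0 higher and 3 lower initiation factors, 4 higher and 2 lower assembly genes, and 3 higher and 12 lower mitochondrial ribosomal protein genes. Among the pseudogene rows 1 of 75 tested was lower, Rps18-ps3 (-0.64, adjusted p = 0.029). The tables were normalized separately, and the difference between epithelium and Myc-CaP was not tested.

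**Figure D5:**
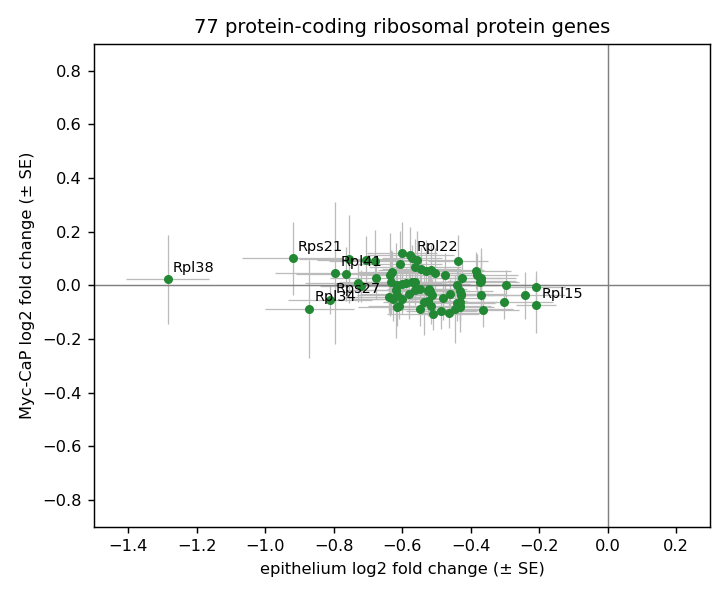
Log2 fold change of the 77 protein-coding genes in epithelium (x axis, labelled KO minus Ctrl) against Myc-CaP (y axis, Arid1a KO minus EV), with standard errors as grey bars. All points lie left of 0 on the x axis and spread on both sides of 0 on the y axis, between -0.11 and 0.12.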

How the data were processed

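RNA-seq of 10 mouse libraries in 4 groups was analysed. Per the labels and the study's methods, total RNA was extracted with TRIzol and sequenced as paired ends, reads were aligned to mm10 and counted per gene with HTSeq. The methods name TopHat2 and the submitters' processing notes HISAT2 as the aligner. The authors deposited RPKM per gene for epithelium and TPM per gene for Myc-CaP, not counts, so a count test could not be used and the depth of Myc-CaP is known only as relative depth, estimated from the steps between low values at 1 to 1.15 between libraries. Epithelium relative depths (0.972 to 1.23) were estimated likewise. Exon lengths were those of GENCODE M21.

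In each table separately, values were transformed as log2(value + 1), genes averaging under 0.5 were left out and limma 3.58.1 (R 4.3.3) with a mean-variance trend compared the groups. A fold change on this scale understates that of low genes. P-values were adjusted by Benjamini-Hochberg over all genes tested, with a threshold of 0.05. An exact permutation test of 3 against 3 libraries cannot give a p below 0.1. The fit was tested on simulated data. Symbols in more than 1 row (2 symbols) were left out of lookups by name.

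Some items of the design and some genes are not reported here. The members and the gene lists were chosen with earlier results of these data known. Named members were the 3 highest and 3 lowest in level per table, the 4 largest rises and falls among called genes without overlap, the stalk and 5S genes and a set list (Rps6, Rpsa, Rps27a, Rps19, Rps3a1, Rpl13a, Rpl10, Rpl22, Rpl41 and Rps4x). Rpl15, Rpl4, Rps2, Rps13, Rps3, the genes named as falling only before rescaling, Krt8, Ptprc, Cd52, Rpl3 and Snhg12 were named after their values were seen. Alternatives were the pseudocount (0.1), the filter (a mean of 5, or none), scalings, removal of a length-linked trend, a replicate block, a variance without trend and each library left out. Start-site windows came from RefSeq (GRCm38.p6) and pseudogenes from GENCODE M21 transcripts, aligned with Biopython 1.88.

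Same-lettered epithelium libraries did not deviate together (correlations of 0.041, 0.0094 and -0.057), so the letters were not used as pairs.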

Additional observations from a re-analysis of the deposited data

Results flagged for a closer look

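The fold changes in epithelium and Myc-CaP had opposite signs with no overlap between groups in 2 named members. Groups did not overlap for 66.7% of all genes tested in epithelium and 51.5% in Myc-CaP. Rpl13a had a log2 fold change of -0.59 in epithelium (every KO library lower). In Myc-CaP it had 0.0086 ± 0.055 SE, a change smaller than its standard error (every KO library higher, at 2778 and 2774 TPM in EV and 2791 and 2794 TPM in KO). Rpl22 had -0.57 in epithelium and 0.10 in Myc-CaP, where it was at 268 and 266 TPM in EV and 288 and 285 TPM in KO. Neither Myc-CaP difference passed the test, and the difference between the tables was not tested. Groups of 3 and 2 libraries are too small for a check of single outlying libraries.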

How the results depend on the processing

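In epithelium the count of 72 lower rows stayed within 1.5-fold under each alternative changed alone except that of an equal median of the members, which by construction left 5 lower and 6 higher with a median of -0.00081. It was 59 without a filter, where many more genes were tested and 4946 of 33813 were called lower. It was 63 with rescaling over rows that are not members, against 3566 of 16269 genes. With quantile normalization it was 53, against 4649 of 16275 genes. The median moved from -0.53 to -0.35 with rescaling to the same sum, -0.39 with rescaling over the other rows and -0.31 with quantile normalization. With protein-coding members only, 0 were higher. Leaving out each library gave 60 to 73 lower and 1 higher, with medians of -0.60 to -0.43, and 46 to 60 lower and 1 higher on the rescaled columns. Of all genes tested, 3988 to 4621 were called lower in these fits as deposited and 2671 to 3264 on the rescaled columns. Rescaling together with leaving out Ctrl C (46), KO A (46) or KO B (47) thus moved the count from 72 by over 1.5-fold. Relative to the members' median, leaving out each library gave 3 to 5 lower and 3 to 8 higher (3 higher without KO A or KO B, 3 lower without KO C), and a variance without trend gave 2 lower and 2 higher, of which 0 higher were coding. The cause was not tested. Shares of the sum were 11.4% in Ctrl and 8.46% in KO epithelium, and 17.9% and 17.8% in Myc-CaP EV and KO, without the 10 most abundant other rows. In Myc-CaP leaving out each library, which left 1 library in its group, gave medians of -0.05 to 0.04.

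Equal centring on the members reversed, without a call, Rpl23a (0.056), Rpl29 (0.093), Rpl5 (0.0037), Rplp0 (0.16), Rps15a (0.050), Rps3a1 (0.020), Rps4x (0.017), Rps6 (0.069) and Rpsa (0.14). Over the named epithelium members and alternatives, 375 values kept their direction and side of the threshold, 22 lost the call and 1 gained it. Rplp0, Rplp2 and Rps3a1 lost it without KO A or KO B or without the filter (adjusted p of 0.052 to 0.077).

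The replicate block changed no epithelium call of a named member and gave 73 lower. In Myc-CaP, where the numbers are shared but no source says that they pair libraries (correlation of deviations 0.195 between the same numbers), the block called 7 rows lower and 4 higher, against 9.43% and 10.4% of all genes, and 1 higher relative to the members' median. The lower rows included Rps3a1, Rpl7a, Rpl14, Rpl6 and Rpl12 and the higher rows Rplp1 and Rps15, with changes from -0.11 (Rps3a1) to 0.10 (Rplp1). Rps3a2 and Rps3a3 had the lowest levels of the 79 rows in both tables, where depth limits a value most.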

Other observations

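Ribosomal protein genes did not have the same order of levels in the tables, which were normalized separately. Across 77 coding genes the mean levels had a Spearman's rho of 0.70, given as a description, and the ratio of mean TPM in Myc-CaP to mean RPKM in epithelium had a median of 4.43. For 6 genes the ratio was under 1, Rpl29 (0.244), Rps18 (0.367), Rpl35a (0.460), Rpl34 (0.494), Rps2 (0.698) and Rpl30 (0.805). Rpl34 was at 254 RPKM in epithelium and 126 TPM in Myc-CaP, and Rps2 at 852 RPKM and 595 TPM. In Myc-CaP the rows named as pseudogenes of Rpl34 summed to 2023 TPM, or 94.2% of the gene and its pseudogene rows together, and those of Rps2 to 1540 TPM, or 72.1%. In epithelium the same shares were 9.85% for Rpl34 and 0.720% for Rps2. For Rpl29, Rps18, Rpl35a and Rpl30 the pseudogene rows held 2.05%, 11.5%, 10.6% and 4.36% of the family in Myc-CaP. Rpl3, with 25.9% in pseudogene rows, had a ratio of 2.82. The division of reads between gene and pseudogene rows is uncertain for Rpl34 and Rps2, and its part in the ratios was not tested.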
